A study of Mus musculus with 30 samples.

Results

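The 33 genes described here encode the enzymes that carry glucose to lactate, the lactate transporters, and the subunit, sensors and targets of the hypoxia-inducible factor HIF-1. They were taken from a list by name, with no measured value in the choice, out of 38031 genes in the count table, and the counts of the transcripts of each gene were summed. The data are 30 bulk RNA-seq libraries of cultured primary microglia, macrophages that live in the brain, from C57BL/6 mice at postnatal day 21. In 3 groups the microglia were wild type: 5 libraries were labelled control, 6 were treated with LPS (bacterial lipopolysaccharide) and 4 with alpha-synuclein fibrils, aggregates of the protein that deposits in Parkinson's disease. The other 3 groups were Lrrk2-/- (KO), lacking the kinase LRRK2, with 6 control, 4 LPS and 5 fibril libraries. The strain, cell type and age were the same in all 6 groups, and the doses, the times of treatment and the sex of the mice are not stated in the sources used here. Whether the libraries of 1 group are from different cultures or mice is not stated either, so the p-values below measure the spread between these libraries, which may be technical.

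Glycolysis splits glucose into pyruvate, and lactate dehydrogenase turns pyruvate into lactate, which leaves the cell through monocarboxylate transporters. HIF-1α is made continuously and destroyed after prolyl hydroxylases, which need oxygen, have marked it for the VHL ubiquitin ligase. When it accumulates, in low oxygen or after inflammatory signals, it raises most of the glycolytic enzymes, the lactate exporter MCT4, and genes such as Vegfa, Bnip3 and Adm. In macrophages and microglia a HIF-1-driven rise in glycolysis is a well-known part of the response to LPS.

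The libraries held 8936310 to 35677005 counts on genes, with a median of 20432234. Levels are given as CPM, counts per 1000000 after scaling by edgeR's TMM factors. A log2 fold change, with its standard error after ±, comes from edgeR's quasi-likelihood test fitted to the 14346 genes with enough counts, and a gene is said to be called, or to have risen or fallen, where the p-value adjusted by Benjamini-Hochberg over all 14346 is under 0.05. All 33 members passed the filter on low counts. Lrrk2 itself was at 6.87 to 16.7 CPM in the wild-type libraries and at 0.732 to 4.68 CPM in the KO libraries, and microglia markers were abundant in every group. The mean log2 CPM of 33 markers of astrocytes, oligodendrocytes, neurons and fibroblasts, called the other-cell score below, was -1.43 to -1.12 in the 4 wild-type fibril libraries. It was -0.966 in wild-type control replicate 6 and -1.45 in wild-type LPS replicate 6, and from 0.133 to 3.41 in the other 24 libraries. In these bulk libraries, fewer cells of a type and less RNA per cell cannot be told apart.

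**Figure D1:**
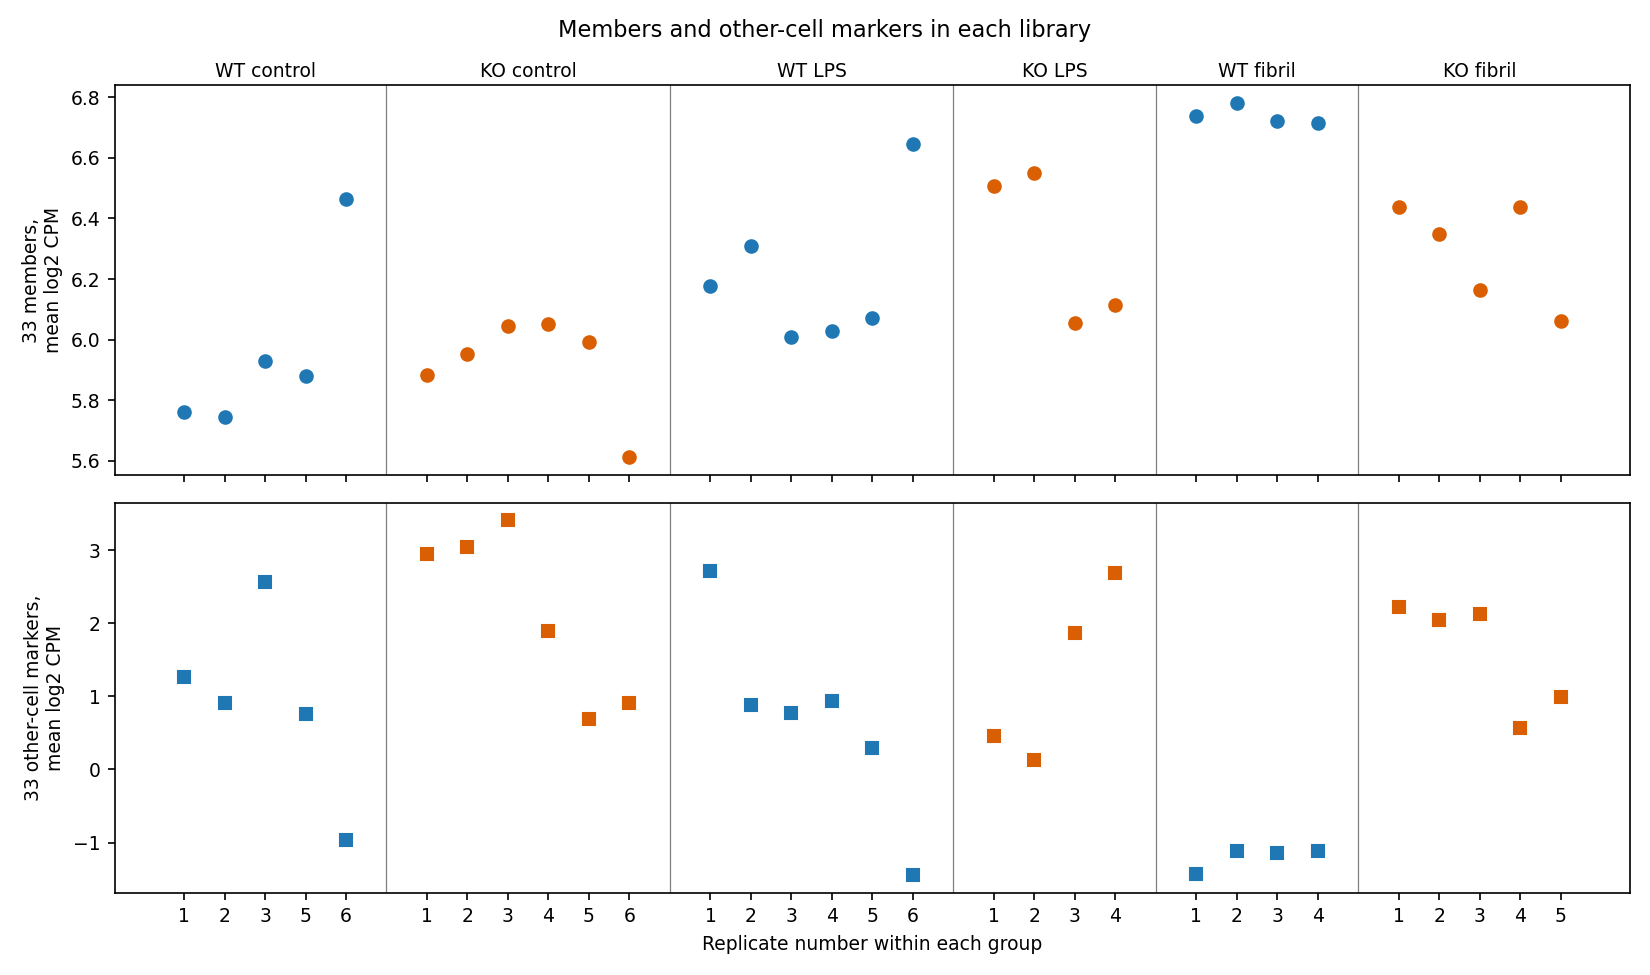
Mean log2 CPM of the 33 glycolysis and hypoxia genes (upper panel) and of the 33 other-cell markers (lower panel), 1 point per library, by group. The 4 wild-type fibril libraries lie at 6.72 to 6.78 for the glycolysis and hypoxia genes and are, with the wild-type control and LPS libraries numbered 6, the lowest for the markers.

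The plot of both means by library shows that the wild-type control and LPS libraries numbered 6, lowest of their groups in other-cell markers, were the highest in glycolysis and hypoxia genes. The members' mean was 6.46 in control replicate 6, against 5.75 to 5.93 in the other wild-type controls, and 6.65 in LPS replicate 6, against 6.01 to 6.31. With fibrils it was 6.72 to 6.78 in wild type and 6.06 to 6.44 in KO. The part of other cells in the results below was not tested directly. Values of a fit with the other-cell score as a covariate are given beside the results for members that they touch.

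With fibrils, wild-type microglia held more mRNA of most of the pathway, from the glucose transporter to the lactate exporter. Of the 33 members 22 rose and 1, Vegfa, fell, where 29.4% of all genes tested were called in either direction, 13.8% higher and 15.6% lower. The median log2 fold change was 0.71 over the members and -0.05 over all genes, and 29 of the 33 values were positive. In 20 members every fibril library was above every control library, and in 1, Slc16a1, every one was below, against 16.4% and 13.4% of all genes. Where only the library size was used as scaling, the median of all genes moved to -0.25 and that of the members to 0.521.

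**Figure D2:**
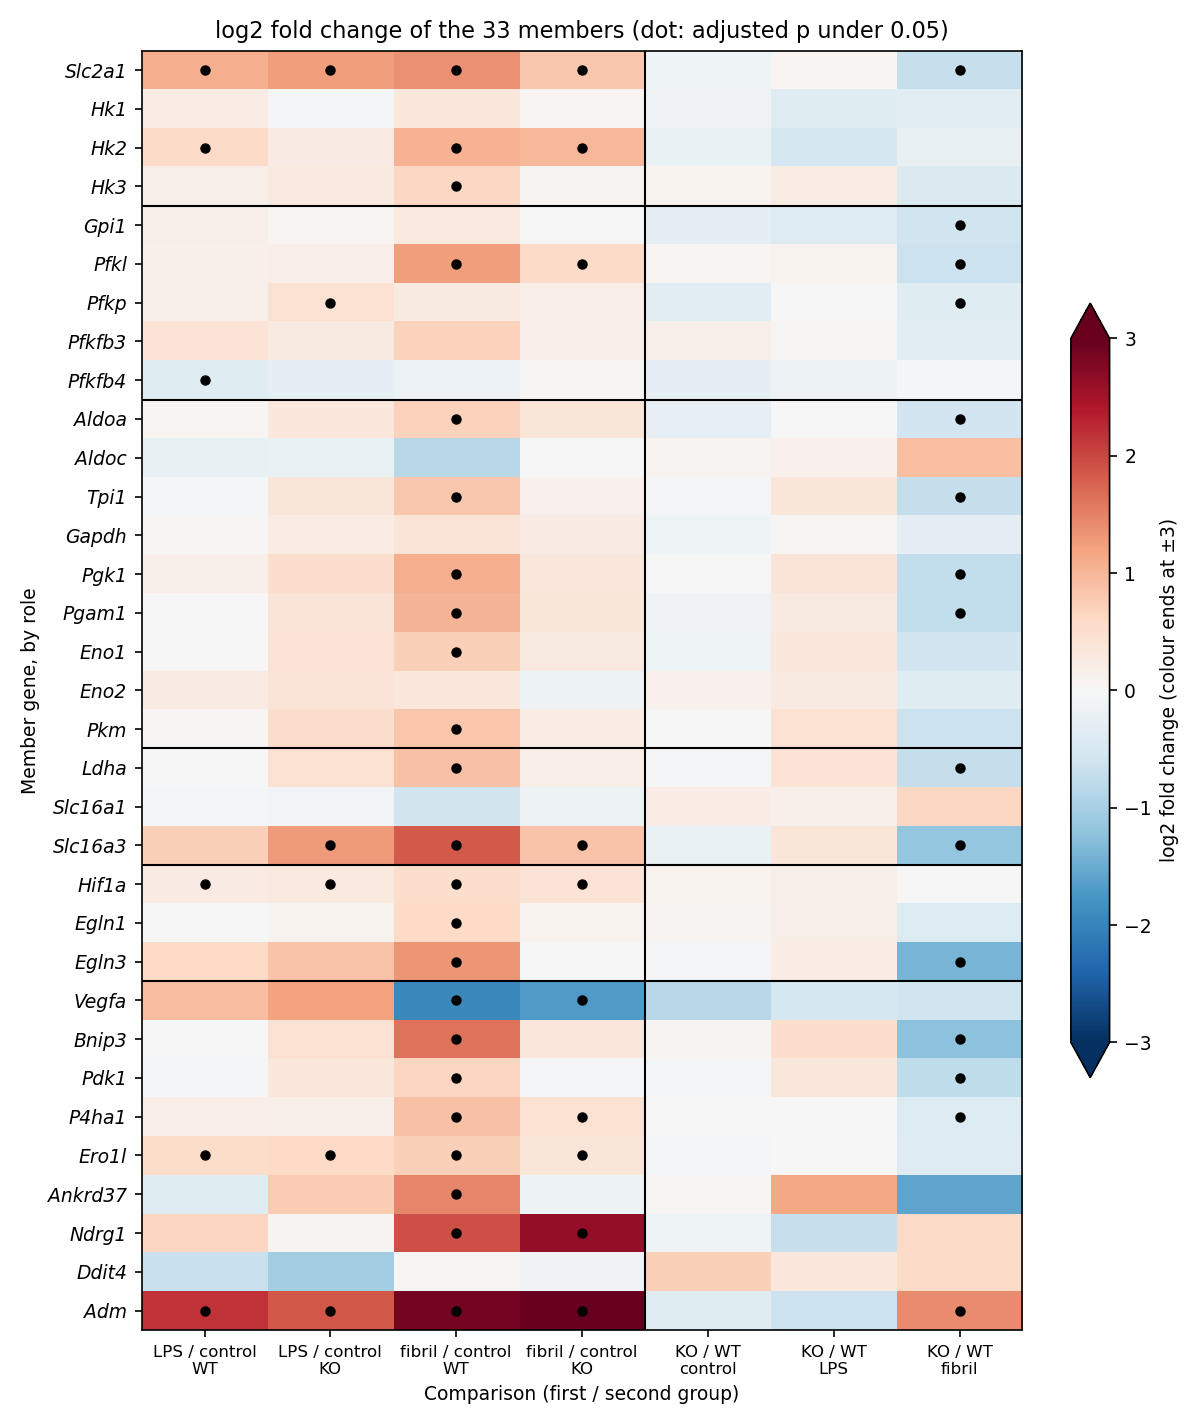
Log2 fold changes of the 33 members (rows, by role) in 7 comparisons (columns), on a colour scale that ends at -3 and 3. A dot marks an adjusted p under 0.05: 23 members in wild type with fibrils, 10 in KO with fibrils, and 15 between KO and wild type with fibrils.

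Glucose enters through Slc2a1 (GLUT1), and a hexokinase then traps it by phosphorylation. Slc2a1 was at 41.1, 42.6, 53.7, 56.8 and 104 CPM in the wild-type controls (replicates 1, 2, 3, 5 and 6, the order kept for this group throughout) and at 155, 154, 156 and 156 CPM with fibrils. All 4 fibril libraries were above the highest control, replicate 6, and lay close together. The log2 fold change was 1.38 ± 0.22 (adjusted p = 5.55e-05, edgeR). Hk2, the hexokinase most often linked to HIF, was at 46.3, 45.03, 53.8, 53.4 and 53.8 CPM in controls and 103, 106, 102 and 102 CPM with fibrils, a log2 fold change of 1.03 ± 0.18. Its groups did not overlap either. Hk3, the myeloid form, rose by 0.62 ± 0.18, and Hk1 was not called at 0.31 ± 0.17.

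In the next steps 1 of the 5 genes rose. Pfkl, the liver-type phosphofructokinase that commits glucose to glycolysis, was at 44.4, 45.6, 48.6, 42.5 and 62.6 CPM in controls and 115, 118, 116 and 118 CPM with fibrils. Every fibril library stood above the controls, of which replicate 6 was the highest, and the log2 fold change was 1.26 ± 0.21 (adjusted p = 7.29e-05, edgeR). Its platelet-type partner Pfkp was at 73.8, 78.8, 69.8, 64.97 and 89.2 CPM in controls and 85.4, 98.2, 86.3 and 92.01 CPM with fibrils, overlapping groups with a log2 fold change of 0.27 ± 0.12 that was not called. Gpi1, which turns glucose 6-phosphate into fructose 6-phosphate, was at 193, 296, 256, 264 and 384 CPM in controls and 348, 324, 357 and 334 CPM with fibrils. Those ranges overlapped and Gpi1 was not called (0.29 ± 0.19), nor were Pfkfb3 and Pfkfb4, which set the level of phosphofructokinase's activator, at 0.68 ± 0.32 and -0.19 ± 0.13.

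Of the 9 genes from aldolase to pyruvate kinase 6 rose, and their median was 0.72. Pgk1, the first enzyme of the pathway to make ATP, was at 461, 417, 443, 436 and 708 CPM in controls and at 1022, 1073, 1037 and 1057 CPM with fibrils. The fibril libraries agreed closely and were all above control replicate 6, itself apart from the other controls. The log2 fold change was 1.09 ± 0.20 (adjusted p = 0.000309, edgeR). Pgam1, which moves the phosphate of 3-phosphoglycerate, was at 312, 309.8, 329.5, 343 and 568 CPM in controls and 761, 747, 736 and 766 CPM with fibrils, a log2 fold change of 1.01 ± 0.20. It showed the same separation. Aldoa, the aldolase of most tissues, was at 949, 1096, 900.3, 953 and 1344 CPM in controls and 1632, 1645, 1671 and 1813 CPM with fibrils (0.69 ± 0.17). Tpi1, which interconverts the triose phosphates, was at 253, 242, 237, 235 and 405 CPM in controls and 465, 472, 491 and 479 CPM with fibrils (0.80 ± 0.22). In both genes control replicate 6 was nearest to the fibril libraries. Eno1 rose by 0.72 ± 0.22 and Pkm, pyruvate kinase, by 0.84 ± 0.21, while Gapdh (0.40 ± 0.16), Aldoc (-0.84 ± 0.54) and Eno2 (0.33 ± 0.24) were not called. Counts of Pgk1-rs7, a near-identical copy of Pgk1, came to 5.47 to 8.33% of those of Pgk1, and reads may have been split between the pair.

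Of the 3 genes of lactate formation and export 2 rose. Ldha, the lactate dehydrogenase subunit that favours lactate, was at 409.8, 353, 350.4, 387 and 678 CPM in controls and 769, 823, 781 and 821 CPM with fibrils (0.87 ± 0.21, adjusted p = 0.00287, edgeR). Slc16a3, the exporter MCT4, was at 39.7, 38.5, 41.1, 42.96 and 119 CPM in controls and 193, 198, 198 and 209.7 CPM with fibrils. Its log2 fold change of 1.83 ± 0.35 was the largest of the enzymes and transporters here, and again all fibril libraries were above control replicate 6. Slc16a1 (MCT1), which carries lactate in either direction, was at 40.02, 30.8, 59.7, 29.9 and 35.8 CPM in controls and 26.01, 26.3, 29.8 and 25.5 CPM with fibrils. Every fibril library was below every control, but the change of -0.54 ± 0.30 was not called.

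The subunit and its sensors rose too. Hif1a was at 161, 152, 181, 158 and 174 CPM in controls and 243, 253, 232 and 218 CPM with fibrils (0.52 ± 0.09, adjusted p = 8.32e-05, edgeR). Egln1, the prolyl hydroxylase PHD2, was at 31.1, 37.7, 35.9, 30.9 and 47.6 CPM in controls and 52.3, 57.7, 52.8 and 57.4 CPM with fibrils (0.59 ± 0.15). Neither gene's groups overlapped, and in Hif1a control replicate 6 was within the range of the other controls. Egln3, the hydroxylase PHD3 and itself a HIF target, was at 2.36, 2.33, 4.23, 2.905 and 9.69 CPM in controls and 11.5, 9.97, 12.2 and 9.36 CPM with fibrils. In Egln3 control replicate 6 fell inside the fibril range, and the rise of 1.33 ± 0.44 was lost without wild-type control replicate 1, 2 or 5 or fibril replicate 1 or 3 (adjusted p up to 0.0618, edgeR).

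Of the other 9 HIF targets 7 rose. Bnip3, a mitophagy receptor, was at 35.3, 28.7, 33.02, 34.8 and 86.04 CPM in controls and 139, 143, 138 and 122 CPM with fibrils, a log2 fold change of 1.64 ± 0.33 (adjusted p = 0.000708, edgeR). The 4 fibril libraries were all above control replicate 6, which stood apart from the rest. Adm, the vasodilator peptide adrenomedullin, was at 1.73, 2.43, 3.66, 1.88 and 1.52 CPM in controls and 14.5, 18.6, 16.3 and 15.2 CPM with fibrils (2.86 ± 0.45). Here control replicate 6 was the lowest control, so the separation did not pass through that library. P4ha1, a collagen prolyl hydroxylase, was at 139, 124, 146, 149.5 and 176 CPM in controls and 263, 285, 269.7 and 266 CPM with fibrils (0.89 ± 0.12), with no overlap and the smallest p of the list. Pdk1, the kinase that closes pyruvate dehydrogenase and so keeps pyruvate from the mitochondria, was at 72.2, 78.2, 74.3, 65.3 and 122 CPM in controls and 135, 131, 132 and 119.8 CPM with fibrils. Pdk1's control replicate 6 lay among the fibril libraries, and the change was 0.65 ± 0.24, lost without any 1 of 9 libraries (adjusted p up to 0.0996, edgeR). Ndrg1 rose by 1.92 ± 0.40, Ero1l, an oxidase of the endoplasmic reticulum, by 0.71 ± 0.13 and Ankrd37 by 1.47 ± 0.53. The call of Ankrd37 was lost without any 1 of 8 libraries, all of its 2 groups but control replicate 6 (adjusted p up to 0.0949, edgeR). Ddit4 was not called (0.03 ± 0.40).

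Vegfa, the angiogenic growth factor and a classic HIF target, went the other way. It was at 7.28, 5.48, 26.4, 72.9 and 82.4 CPM in the wild-type controls and 11.1, 11.2, 8.63 and 9.57 CPM with fibrils. The controls spread widely, replicates 1 and 2 were below all fibril libraries and replicates 3, 5 and 6 above them. The fitted change was -1.94 ± 0.59 (adjusted p = 0.0147, edgeR). The call was lost with limma-voom (-1.14, adjusted p = 0.215), with only the groups compared in the edgeR fit (adjusted p = 0.0606) and with the replicate number as a block (-1.52, adjusted p = 0.0892), and so was the call in KO with limma-voom (adjusted p = 0.167).

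**Figure D3:**
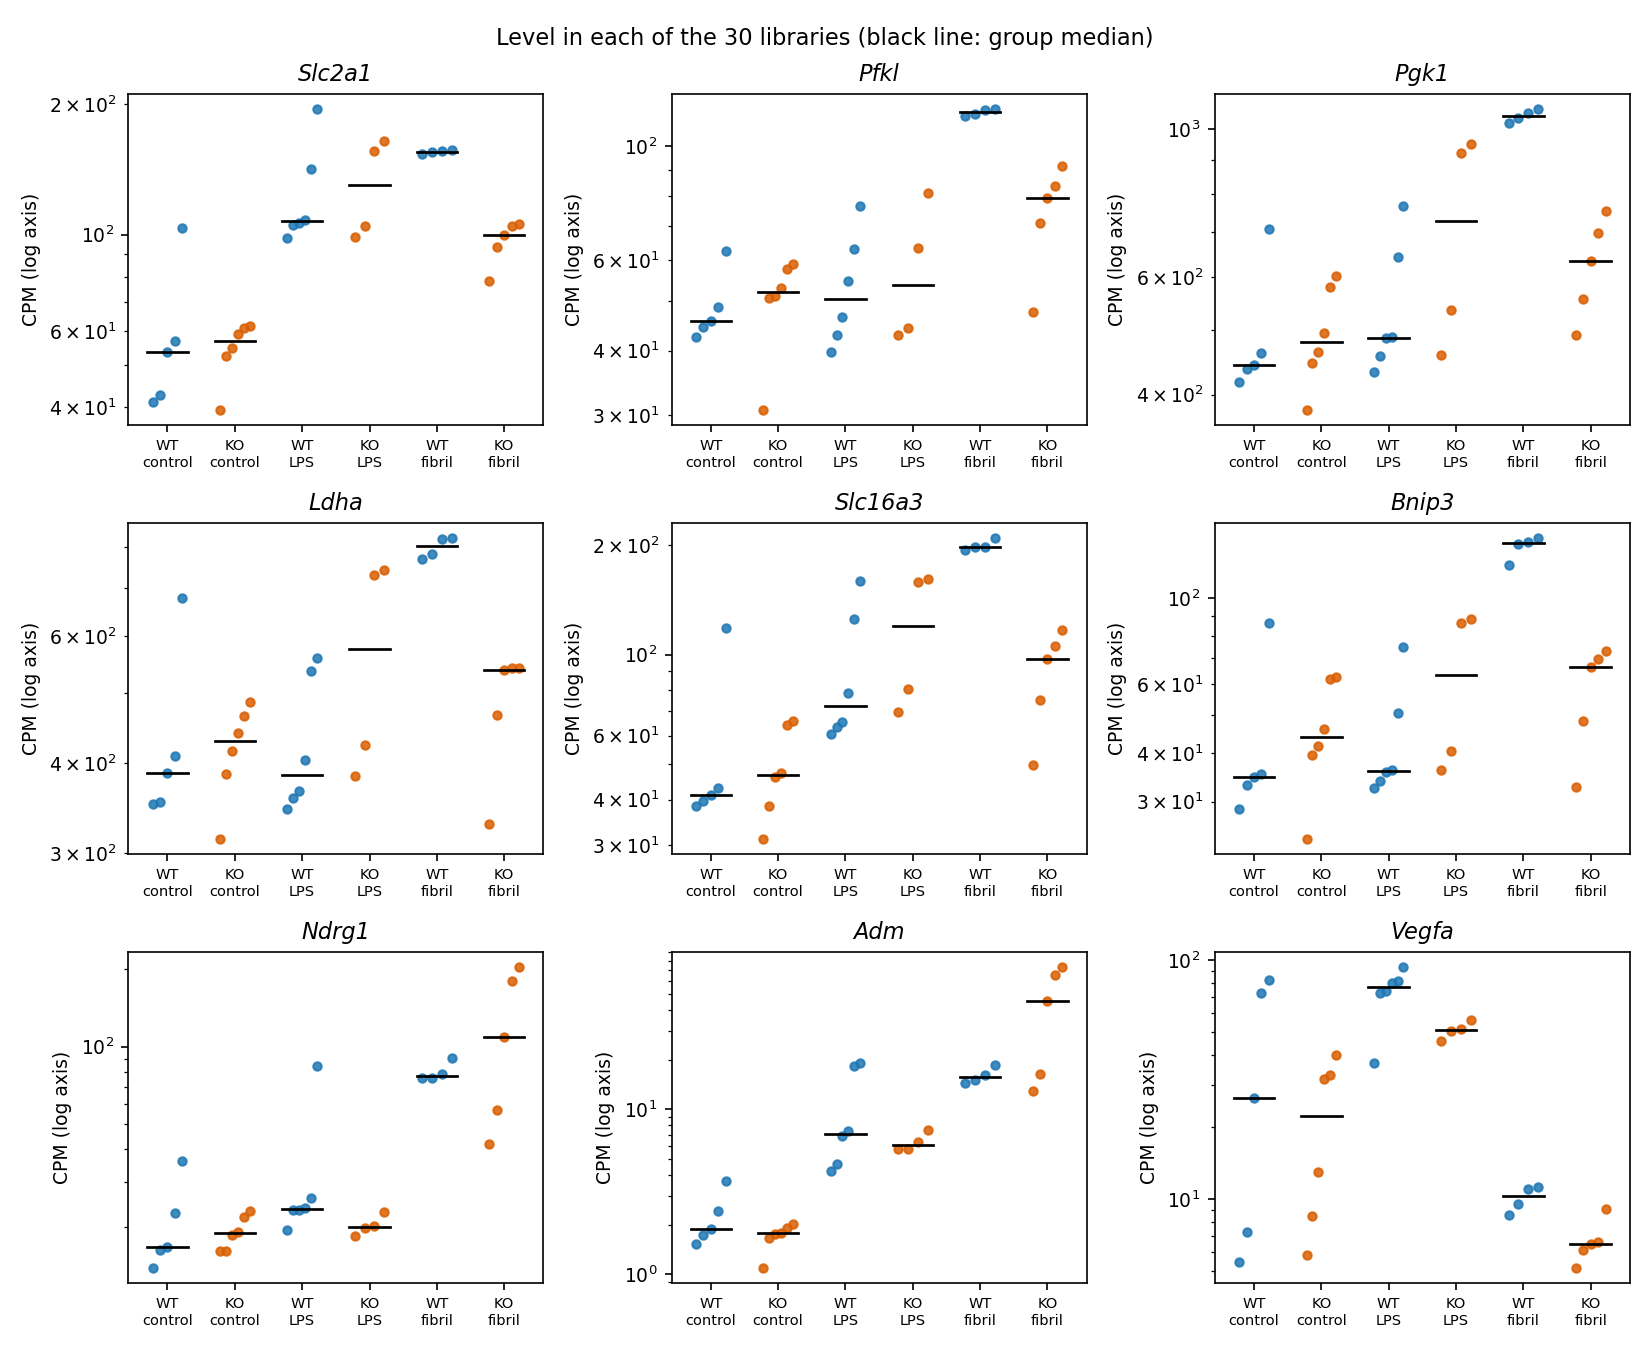
CPM on a log axis of 9 members in each library, by group, with wild-type libraries in blue, KO in orange and the group median as a line. For Pgk1 the 4 wild-type fibril libraries lie at 1022 to 1073 CPM, above every control library, and for Vegfa both fibril groups lie at or below 11.2 CPM while LPS libraries lie at 37.2 CPM or more.

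Other-cell markers moved in the same comparison. In wild type with fibrils 7 of 9 tested astrocyte markers, 6 of 7 fibroblast, 3 of 12 oligodendrocyte lineage and 2 of 5 neuron markers fell. Of 5 tested endothelium and pericyte markers 3 fell and 1 rose, of 5 choroid plexus and ependyma markers 1 fell, and the only tested blood cell marker rose. Of 14 microglia markers 4 rose and 2 fell. Summed and scaled by total count alone, the astrocyte markers were at 17.2 to 223 CPM in controls and 10.8 to 16.2 with fibrils, the fibroblast markers at 5.43 to 128 and 0.872 to 1.96. Gjb6, Pdgfrl, Nefl, Mog and Mobp were at 0 counts in every wild-type fibril library, and Gjb6 in every wild-type LPS library too. With the other-cell score as a covariate, an alternative added after seeing the data, 14 members rose and 1 fell, and 16.6% of all genes were called. Values under it were 1.00 ± 0.19 for Slc2a1, 1.12 ± 0.23 for Pfkl, 0.75 ± 0.19 for Pgk1, 1.33 ± 0.32 for Slc16a3, 1.16 ± 0.31 for Bnip3, 0.50 ± 0.10 for Hif1a and 2.93 ± 0.53 for Adm, all still called. Hk3, Aldoa, Tpi1, Eno1, Pkm, Egln3, Pdk1 and Ankrd37 were no longer called under it. The scores of the wild-type fibril libraries, -1.43 to -1.12, were all below those of the wild-type controls, -0.966 to 2.56. Fibril treatment and other-cell content therefore cannot be told apart in this comparison, and calls that held under the covariate do not separate them. Without the 2 wild-type libraries numbered 6, which have the low marker score of the fibril libraries, 25 members rose and 1 fell, where 31.2% of all genes were called.

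The sequence before the start sites of the members was searched for the core of the hypoxia response element, which HIF-1 binds. The motifs were ACGTG and GCGTG on either strand, which read CACGT and CACGC on the other strand, and CACGTG counts on both strands as 2 overlapping positions. RefSeq promoter windows on GRCm38.p6 were found for 32 of the 33 members, and the 250 bases upstream of the start site were read. A motif was present in 27 of the 32 windows (84.4%), against 38.6% of all 32851 windows, and ACGTG in 18 (56.2%), against 16.6%. Members with 2 or more positions numbered 19 (59.4%), against 16.7% of all windows. The members were listed as glycolysis genes and HIF targets, so an excess of these motifs can follow from that choice alone. It says nothing about why their levels moved. Each member was read at the window nearest the start of its most counted transcript, while the comparison holds every window of every gene. The windows of the members also held more CpG dinucleotides, a median of 15 against 6, and these motifs contain CpG. The 4 windows below are shown because their genes mark the ends of the pattern: Pgk1 and Bnip3 were high in wild type with fibrils and lower in KO, Adm was highest in KO with fibrils, and Vegfa fell. Capitals mark the motif matches.
Pgk1, chrX:106186850-106187099 (GRCm38.p6, plus strand): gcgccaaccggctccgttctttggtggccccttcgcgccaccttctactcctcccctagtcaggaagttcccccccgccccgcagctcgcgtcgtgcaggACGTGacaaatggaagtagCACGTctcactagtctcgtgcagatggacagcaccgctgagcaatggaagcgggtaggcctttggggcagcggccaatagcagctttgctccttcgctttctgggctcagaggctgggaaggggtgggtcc
Bnip3, chr7:138909520-138909756 (GRCm38.p6, minus strand): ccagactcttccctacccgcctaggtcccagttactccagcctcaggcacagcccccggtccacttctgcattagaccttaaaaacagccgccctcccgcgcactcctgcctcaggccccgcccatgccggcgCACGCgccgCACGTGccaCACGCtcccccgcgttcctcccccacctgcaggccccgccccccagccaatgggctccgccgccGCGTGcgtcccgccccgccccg
Adm, chr7:110627407-110627656 (GRCm38.p6, plus strand): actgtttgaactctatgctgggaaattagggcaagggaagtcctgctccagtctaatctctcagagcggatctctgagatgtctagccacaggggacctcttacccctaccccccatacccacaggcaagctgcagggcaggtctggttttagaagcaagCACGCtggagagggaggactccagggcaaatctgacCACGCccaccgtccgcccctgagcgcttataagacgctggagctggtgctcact
Vegfa, chr17:46032378-46032627 (GRCm38.p6, minus strand): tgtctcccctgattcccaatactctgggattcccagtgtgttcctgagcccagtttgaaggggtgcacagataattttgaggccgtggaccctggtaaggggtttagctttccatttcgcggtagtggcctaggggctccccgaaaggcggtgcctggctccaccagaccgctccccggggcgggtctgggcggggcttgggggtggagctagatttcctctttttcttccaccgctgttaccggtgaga

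The Pgk1 window held 2 ACGTG matches, 1 on each strand, between positions -150 and -127 from the start site. Bnip3 had 5 positions, a CACGC from -117, a CACGTG from -108 to -103 that counts on both strands, a CACGC from -99 and a GCGTG from -35, and its printed run ends 14 bases before the start site. Adm had 2 CACGC matches at -90 and -54. The Vegfa window had no match, and nor did the windows of Gpi1, Tpi1, Eno2 and Pkm, though a window at another start site of Pkm and of Vegfa did. A match is a description of the letters, not a bound site.

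**Figure D4:**
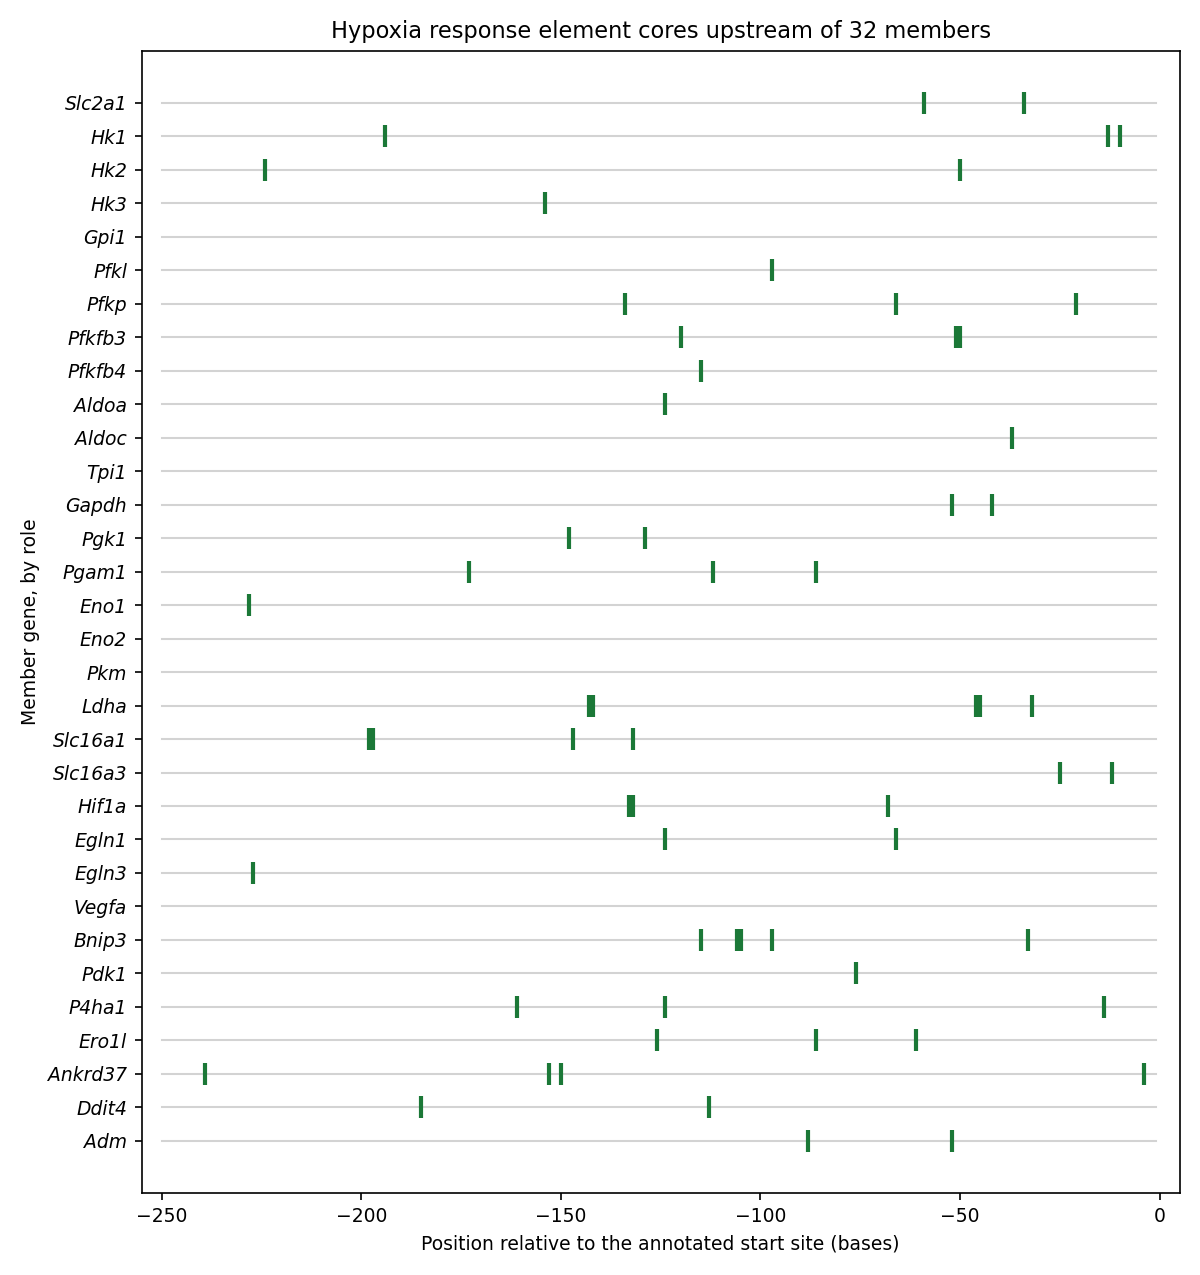
Position of each motif match in the 250 bases upstream of the start site, 1 row per member with a RefSeq window. Of the 32 members 27 have at least 1 match and 19 have 2 or more.

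In KO microglia Slc2a1, Hk2, Pfkl, Slc16a3, Hif1a and 4 other HIF targets rose with fibrils. Altogether 9 members rose and 1 fell, where 23.7% of all genes were called, 12.2% higher and 11.5% lower. The members' median was 0.21, against -0.04 over all genes, with 24 of 33 values positive, and 5 members had every fibril library above every control, against 4.68% of all genes. Called higher were 2 of the 4 genes of glucose entry, 1 of the 5 hexose phosphate genes, none of the 9 from aldolase to pyruvate kinase, 1 of the 3 lactate genes, 1 of the 3 HIF subunit and hydroxylase genes, and 4 of the 9 other targets, of which Vegfa fell. With the other-cell score as a covariate the counts were again 9 and 1, where 26% of all genes were called. The wild-type and KO responses are set side by side here and their difference is tested further on.

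Slc2a1 was at 39.5 to 61.6 CPM with a median of 56.8 in KO controls and 99.8, 104, 78.2, 106 and 93.7 CPM with fibrils (0.82 ± 0.20, adjusted p = 0.00328, edgeR). Hk2 was at 32.4 to 54.4 CPM with a median of 45.7 in controls and 74.5, 65.6, 78.4, 98.1 and 126 CPM with fibrils (1.01 ± 0.16). The groups of both genes were separate, and Hk2 rose by about as much as in wild type. Pfkl was at 30.7 to 58.95 CPM with a median of 52.1 in controls and 91.7, 83.6, 70.98, 79.5 and 47.5 CPM with fibrils (0.57 ± 0.19), with overlap, and was no longer called without control replicate 6 or without fibril replicate 1, 2 or 4 (adjusted p up to 0.0759, edgeR). Slc16a3 was at 31.3 to 65.8 CPM with a median of 46.9 in controls and 117, 106, 74.9, 97.5 and 49.9 CPM with fibrils (0.87 ± 0.31). Fibril replicate 5 was inside the control range of Slc16a3, and the call was lost without any 1 of 12 libraries (adjusted p up to 0.104, edgeR).

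Among the members that KO did not call, Pfkp was at 48.2 to 67.1 CPM with a median of 63.3 in controls and 71.6, 70.8, 66.03, 75.6 and 66.7 CPM with fibrils, and Gpi1 at 165 to 300.1 CPM with a median of 224 in controls and 269.5, 248, 162, 239 and 204 CPM with fibrils. Their log2 fold changes were 0.20 ± 0.11 and -0.01 ± 0.18. Pgk1 was at 379.6 to 601 CPM with a median of 479 in controls and 635, 698, 556, 754 and 491 CPM with fibrils (0.34 ± 0.18), and Pgam1 at 298 to 399 CPM with a median of 339.5 in controls and 513, 555, 365, 488 and 322 CPM with fibrils (0.37 ± 0.18). In both, fibril replicates 1, 2 and 4 were above every control while 3 and 5 were not. Aldoa was at 749 to 1008 CPM with a median of 878 in controls and 1266, 1352, 910.2, 1271 and 859.6 CPM with fibrils (0.35 ± 0.15). Tpi1 was at 162 to 321 CPM with a median of 262 in controls and 348, 366, 242, 317 and 168 CPM with fibrils (0.14 ± 0.20). Ldha, at 314 to 487 CPM with a median of 429 in controls and 543, 539, 467, 542 and 329 CPM with fibrils (0.21 ± 0.19), showed the same low pair of fibril libraries. The 9 genes from aldolase to pyruvate kinase had a median of 0.25.

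Hif1a rose in KO as in wild type. It was at 163 to 198 CPM with a median of 174 in KO controls and 232, 215, 252, 225 and 259.9 CPM with fibrils (0.41 ± 0.08, adjusted p = 0.000278, edgeR), with separate groups. Egln1 was at 27.9 to 49.1 CPM with a median of 38.4 in controls and 49.5, 47.5, 38.8, 44.3 and 27.8 CPM with fibrils (0.11 ± 0.13) and Egln3 at 2.12 to 5.94 CPM with a median of 3.82 in controls and 5.26, 3.81, 2.75, 6.17 and 2.31 CPM with fibrils (-0.02 ± 0.40). Neither hydroxylase was called, and in both the fibril libraries spread across the control range. Bnip3 was at 24.1 to 62.8 CPM with a median of 43.9 in controls and 66.5, 69.9, 48.3, 73.04 and 32.6 CPM with fibrils (0.34 ± 0.30), not called. Pdk1 was at 42.5 to 95.8 CPM with a median of 88.3 in controls and 89.1, 99.8, 71.5, 89.2 and 33.9 CPM with fibrils (-0.07 ± 0.21), not called. P4ha1, at 122 to 164 CPM with a median of 151 in controls and 223, 216, 181, 230.3 and 164 CPM with fibrils, rose by 0.46 ± 0.11 with 4 of 5 fibril libraries above every control. Ero1l rose by 0.37 ± 0.12, lost without control replicate 3 or fibril replicate 5 (adjusted p up to 0.0961, edgeR).

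Adm and Ndrg1 were the exceptions, with log2 fold changes of 4.63 ± 0.44 and 2.63 ± 0.37 in KO. Adm was at 1.09 to 2.02 CPM with a median of 1.77 in KO controls and 16.5, 12.9, 73.7, 45.5 and 65.8 CPM with fibrils. Every fibril library was above every control, but replicates 3, 4 and 5 were far above replicates 1 and 2. Ndrg1, a stress-responsive gene, was at 16.1 to 23.1 CPM with a median of 18.9 in controls and 56.9, 41.8, 179, 109 and 205 CPM with fibrils and divided the fibril libraries in the same way. The KO fibril replicates 3 and 5, high for Adm and Ndrg1, were the low ones for Pgk1, Ldha, Slc16a3 and Bnip3, so the order of these 5 libraries differed between the 2 sets of genes. Vegfa was at 5.84 to 40.1 CPM with a median of 22.4 in controls and 9.15, 6.15, 6.498, 5.17 and 6.599 CPM with fibrils, a change of -1.71 ± 0.53 with overlapping ranges.

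Compared directly with fibrils present, KO libraries had less of the pathway than wild type. Of the 33 members 14 were lower and 1, Adm, was higher, where 8.94% of all genes were called, 5.27% higher and 3.67% lower. The median was -0.43 for the members and 0.01 for all genes. In 20 members every KO fibril library was below every wild-type one, against 7.87% of all genes. Lower were 1 gene of glucose entry, 3 of hexose phosphate, 4 from aldolase to pyruvate kinase, 2 of lactate, 1 hydroxylase and 3 other targets.

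The lower members were Slc2a1 (-0.69 ± 0.22), Gpi1 (-0.60 ± 0.19), Pfkl (-0.64 ± 0.21), Pfkp (-0.37 ± 0.12), Aldoa (-0.58 ± 0.17), Tpi1 (-0.73 ± 0.22), Pgk1 (-0.74 ± 0.20), Pgam1 (-0.75 ± 0.20), Ldha (-0.72 ± 0.21), Slc16a3 (-1.16 ± 0.34), Egln3 (-1.40 ± 0.44), Bnip3 (-1.22 ± 0.33), Pdk1 (-0.75 ± 0.24) and P4ha1 (-0.42 ± 0.12). The smallest adjusted p was 0.0228 for Pgam1 (edgeR), so no call was far from the threshold. For each of these 14 the lowest wild-type fibril library was above the highest KO one. Adm was higher in KO by 1.41 ± 0.43 (adjusted p = 0.0394, edgeR), with KO replicate 2 below and KO replicates 3, 4 and 5 above all wild-type libraries. Hif1a did not differ by a called amount (0.0006 ± 0.09), nor did Hk2 (-0.22 ± 0.18).

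These calls rested on few libraries. No member was called when KO fibril replicate 3 or wild-type fibril replicate 1, 2 or 3 was left out, 1 was called without wild-type fibril replicate 4 and 2 without KO fibril replicate 5. The count was 8 without wild-type control replicate 5 and 9 without KO LPS replicate 3. Neither library is in the groups compared, and both enter through the filter, the scaling and the shared estimate of spread. With the other-cell score as a covariate no member was called, where 0.509% of all genes were, and Pgk1 was at -0.27 ± 0.21, Bnip3 at -0.46 ± 0.35 and Adm at 1.33 ± 0.52 (adjusted p = 0.387 for Adm, edgeR). The score ran from 0.563 to 2.22 in the KO fibril libraries, above all wild-type fibril libraries, and 6 of 9 astrocyte, 6 of 7 fibroblast, 3 of 12 oligodendrocyte lineage and 3 of 5 neuron markers were higher in KO. Genotype and other-cell content cannot be told apart in the fibril libraries. Without 7 libraries that stand apart in composition, total or markers, picked with no set threshold (KO control replicates 1, 4 and 6, KO fibril 5, wild-type control 6 and wild-type LPS 1 and 6), 2 members were higher and 19 lower, where 17.7% of all genes were called. Other settings gave 8 calls with RLE scaling (8.25% of all genes called) and 5 with library size alone (8.48%), which moved the median of all genes to 0.164. There were 5 with no filter on low counts (3.19%) and 9 with limma-voom (4.01%).

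The difference itself, the KO fibril response minus the wild-type one, passed the threshold for none of the 33 members and for none of the 14346 genes (edgeR). At an unadjusted p under 0.05 there were 15 members, 14 lower in KO and 1 higher, where 11.6% of all genes were under it. The smallest adjusted p of the members was 0.327 (edgeR). The median difference was -0.45 over the members and 0.02 over all genes. Single values were -0.74 ± 0.27 for Pgk1, -0.97 ± 0.46 for Slc16a3, -1.30 ± 0.45 for Bnip3 and 1.77 ± 0.61 for Adm. DESeq2 also called none of the members, where it called 0.467% of all genes. Without the 2 wild-type libraries numbered 6, Bnip3 was called lower, 1 member where 0.663% of all genes were called. Without 7 libraries that stand apart 6 members were lower, where 1.72% of all genes were called: Pdk1 (-0.91 ± 0.16), Bnip3 (-1.60 ± 0.35), Slc2a1 (-0.94 ± 0.23), Egln3 (-2.09 ± 0.51), Slc16a3 (-1.40 ± 0.35) and Egln1 (-0.52 ± 0.13).

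With LPS 18.2% of the members were called in each genotype, close to the shares of all genes called. In wild type 5 members rose and 1 fell, where 15.1% of all genes were called, 8.03% lower and 7.1% higher. Among KO libraries 6 rose and none fell, where 13.7% of all genes were called, 6.36% higher and 7.35% lower. The members' medians were 0.15 in wild type and 0.35 in KO, against -0.02 and -0.04 over all genes, with 23 and 28 positive values. Scaled by library size alone, the wild-type median turned to -0.066, with 11 positive values, as that of all genes moved to -0.229. Without the 7 libraries that stand apart 8 rose and 2 fell in wild type, where 17.6% of all genes were called. The LPS and fibril comparisons share their control libraries. Tnf, Il1b, Il6 and Nfkbia, inflammatory genes that LPS induces, rose in both genotypes.

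Slc2a1 had the smallest p of the members with LPS in both genotypes. It was at 98.1 to 195 CPM with a median of 107 in wild type with LPS (1.08 ± 0.20, adjusted p = 0.000274, edgeR) and at 156, 164, 104 and 98.9 CPM in KO (1.26 ± 0.21). Control replicate 6 lay inside the wild-type LPS range, and the KO LPS libraries were all above their controls. Hk2 was at 61.1 to 123 CPM with a median of 67.5 in wild type and rose by 0.58 ± 0.16, a call lost without LPS replicate 6 (adjusted p = 0.0537, edgeR). In KO Hk2 was at 47.7, 56.6, 54.97 and 50.01 CPM and not called (0.25 ± 0.17). Hif1a was at 181 to 226 CPM with a median of 190.1 (0.24 ± 0.08) in wild type and 249, 238, 194 and 194 CPM (0.30 ± 0.08) in KO. The Hif1a rise was small, and it was lost without any 1 of 6 libraries in wild type (adjusted p up to 0.122, edgeR) and without LPS replicate 1 or 2 in KO (up to 0.103). Scaled by library size alone, the Hif1a change was 0.02 in wild type (adjusted p = 0.874, edgeR) and 0.11 in KO (adjusted p = 0.409), neither of them called.

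Adm was at 4.26 to 19.1 CPM with a median of 7.12 in wild type with LPS (2.17 ± 0.42) and at 5.77, 6.35, 7.495 and 5.79 CPM in KO (1.87 ± 0.44). Ero1l rose by 0.54 ± 0.12 and 0.59 ± 0.12. Pfkfb4 fell by 0.37 ± 0.12 on the log2 scale in wild type, lost without any 1 of 5 libraries (adjusted p up to 0.119, edgeR). Called in KO and not in wild type were Pfkp, at 95.1, 100.3, 68.5 and 68.03 CPM in KO (0.45 ± 0.11) and 73.5 to 98.2 CPM with a median of 79.4 in wild type (0.16 ± 0.11), and Slc16a3. Slc16a3 was at 162, 158, 69.7 and 80.7 CPM in KO (1.27 ± 0.33) and 60.8 to 159 CPM with a median of 72.1 in wild type (0.71 ± 0.31). Neither KO call held without 1 library, LPS replicate 2 for Pfkp and 1 for Slc16a3, with adjusted p of 0.06 and 0.052 (edgeR). The difference between the LPS responses was called for none of the members and none of all genes, and DESeq2 called no member. At an unadjusted p under 0.05 there were 0 members and 4.18% of all genes (edgeR).

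Pgk1, Pgam1, Pfkl, Gpi1, Aldoa and Tpi1 were not called with LPS in either genotype. Pgk1 was at 433 to 766 CPM with a median of 487 in wild type (0.15 ± 0.18) and 921, 950.5, 458 and 536 CPM in KO (0.54 ± 0.19), and Pgam1 at 297 to 536 CPM with a median of 330 in wild type (0.02 ± 0.18) and 558, 559.5, 325 and 369 CPM in KO (0.38 ± 0.19). KO LPS replicates 1 and 2 were high in both genes and replicates 3 and 4 were not. Those high libraries, KO LPS replicates 1 and 2, had the lower other-cell scores of their group, 0.461 and 0.133 against 1.87 and 2.69. In the other KO groups the order was mixed. Among KO fibril libraries replicate 4 had the lowest score (0.563) and the highest Pgk1, but replicate 5, next at 0.986, had the lowest Pgk1. KO control replicate 6, with a score of 0.907, had the lowest Tpi1, Aldoa, Pfkl and Pfkp of the KO controls but the highest Hk2 and Pfkfb3. Pfkl was at 39.7 to 76.5 CPM with a median of 50.5 in wild type (0.14 ± 0.19) and 63.4, 80.9, 42.8 and 44.2 CPM in KO (0.20 ± 0.20), and Gpi1 at 248 to 427 CPM with a median of 288 in wild type (0.17 ± 0.18) and 275, 318, 188 and 173 CPM in KO (0.07 ± 0.19). Aldoa was at 914 to 1451 CPM with a median of 1039 in wild type (0.06 ± 0.15) and 1310, 1440, 839.7 and 857 CPM in KO (0.33 ± 0.16), and Tpi1 at 214 to 346 CPM with a median of 245 in wild type (-0.07 ± 0.20) and 418, 428, 237 and 263 CPM in KO (0.36 ± 0.21). In each of these genes the LPS range reached into the control range in wild type.

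Ldha was at 346 to 560 CPM with a median of 385 (-0.02 ± 0.19) in wild type with LPS and 742, 731, 384 and 423 CPM (0.45 ± 0.20) in KO. Egln1 was at 32.4 to 41.98 CPM with a median of 35.1 in wild type (-0.0047 ± 0.13) and 43.1, 43.8, 38.9 and 39.5 CPM in KO (0.10 ± 0.14), and Egln3 at 3.32 to 13.3 CPM with a median of 5.31 in wild type (0.59 ± 0.40) and 9.66, 12.9, 4.12 and 3.39 CPM in KO (0.86 ± 0.42). None was called, and KO LPS replicates 1 and 2 were again the highest of their group in all 3 genes. Bnip3 was at 32.5 to 74.6 CPM with a median of 35.9 in wild type (0.01 ± 0.30) and 86.3, 88.4, 36.1 and 40.4 CPM in KO (0.45 ± 0.32), and Pdk1 at 67.7 to 109 CPM with a median of 74.3 in wild type (-0.03 ± 0.21) and 122, 114, 82.5 and 89.8 CPM in KO (0.35 ± 0.23). P4ha1 was at 151 to 195 CPM with a median of 162 in wild type (0.20 ± 0.11) and 182, 200.4, 146 and 138 CPM in KO (0.17 ± 0.11). These targets were not called with LPS either. Vegfa was at 37.2 to 94.2 CPM with a median of 77.2 in wild type (0.92 ± 0.50) and 45.9, 50.7, 51.4 and 56.2 CPM in KO (1.22 ± 0.52), not called against control.

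Set directly against LPS, fibrils gave higher levels of most of the pathway in wild type. There 17 members were higher and 1 lower with fibrils, where 37.1% of all genes were called, 18.1% higher and 18.9% lower. The median was 0.63 over the members and -0.04 over all genes. Pfkl (1.11 ± 0.20), Bnip3 (1.62 ± 0.31), Slc16a3 (1.12 ± 0.33), Pgam1 (1.00 ± 0.19), Pgk1 (0.94 ± 0.19), P4ha1 (0.69 ± 0.11), Ankrd37 (1.83 ± 0.51) and Ndrg1 (1.27 ± 0.37) were among the higher. Hk2 was higher by 0.45 ± 0.17, lost without any 1 of 11 libraries (adjusted p up to 0.0779, edgeR). The other higher members were Aldoa, Tpi1, Eno1, Pkm, Ldha, Hif1a, Egln1 and Pdk1, with log2 fold changes from 0.28 to 0.90. Slc2a1, which rose with both treatments, was not called between them (0.30 ± 0.21). Astrocyte markers (7 of 9) and fibroblast markers (6 of 7) were lower with fibrils here as well, and with the score as a covariate 11 members were higher and 1 lower, where 29.7% of all genes were called.

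In KO the same comparison called 3 members higher with fibrils, Hk2 (0.76 ± 0.18), Ndrg1 (2.54 ± 0.42) and Adm (2.75 ± 0.46), and 1 lower, where 26.5% of all genes were called, 13.8% higher and 12.7% lower. The members' median was -0.08, with 13 of 33 values positive, and that of all genes 0.02. Without the 7 libraries that stand apart 6 were higher and 4 lower, where 30.5% of all genes were called. Vegfa was the member lower with fibrils in both genotypes, with log2 fold changes of -2.86 ± 0.60 in wild type (adjusted p = 0.000583, edgeR) and -2.92 ± 0.58 in KO (adjusted p = 0.000419). With fibrils it was at or below 11.2 CPM in all 9 libraries and with LPS at or above 37.2 CPM in all 10. The comparisons with fibrils share their fibril libraries with those against control.

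Without fibrils no difference between the genotypes passed the test. No member was called between KO and wild type in controls, where 0.321% of all genes were called. There 2 members had an unadjusted p under 0.05, as did 7.27% of all genes (edgeR, smallest adjusted p of the members 0.387). With LPS none was called, where 1.73% of all genes were, 0.474% higher and 1.25% lower. Of the members 6 had an unadjusted p under 0.05 with LPS, as did 17.2% of all genes (edgeR, smallest adjusted p of the members 0.108). DESeq2 called no member in either, where it called 0.683% of all genes in controls and 4.68% with LPS. The members' medians were -0.06 in controls and 0.16 with LPS, against 0.01 and 0.02 over all genes. Without 7 libraries that stand apart, Hk2 was lower (-0.33 ± 0.10) and Pdk1 higher (0.41 ± 0.11) in KO with LPS, 2 members where 7.44% of all genes were called.

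Levels can be set between genes only per length, as counts over transcript length scaled to the same sum in every library. On that scale the wild-type controls were led by Pkm at 1285, Aldoa at 1127 and Gapdh at 754 on average, and Adm (2.66), Egln3 (2.46) and Ddit4 (1.12) were lowest. The share that each isozyme took of its family on this scale was tested in the 4 comparisons with control by exact two-sided permutation tests, 28 in all with Benjamini-Hochberg adjustment. None passed the threshold, and the smallest adjusted p was 0.0889. With 4 against 5 libraries an exact permutation p cannot be under 0.0159, which 28 adjusted tests leave little room to pass. The lack of calls in wild type with fibrils therefore does not show that shares were equal.

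**Figure D5:**
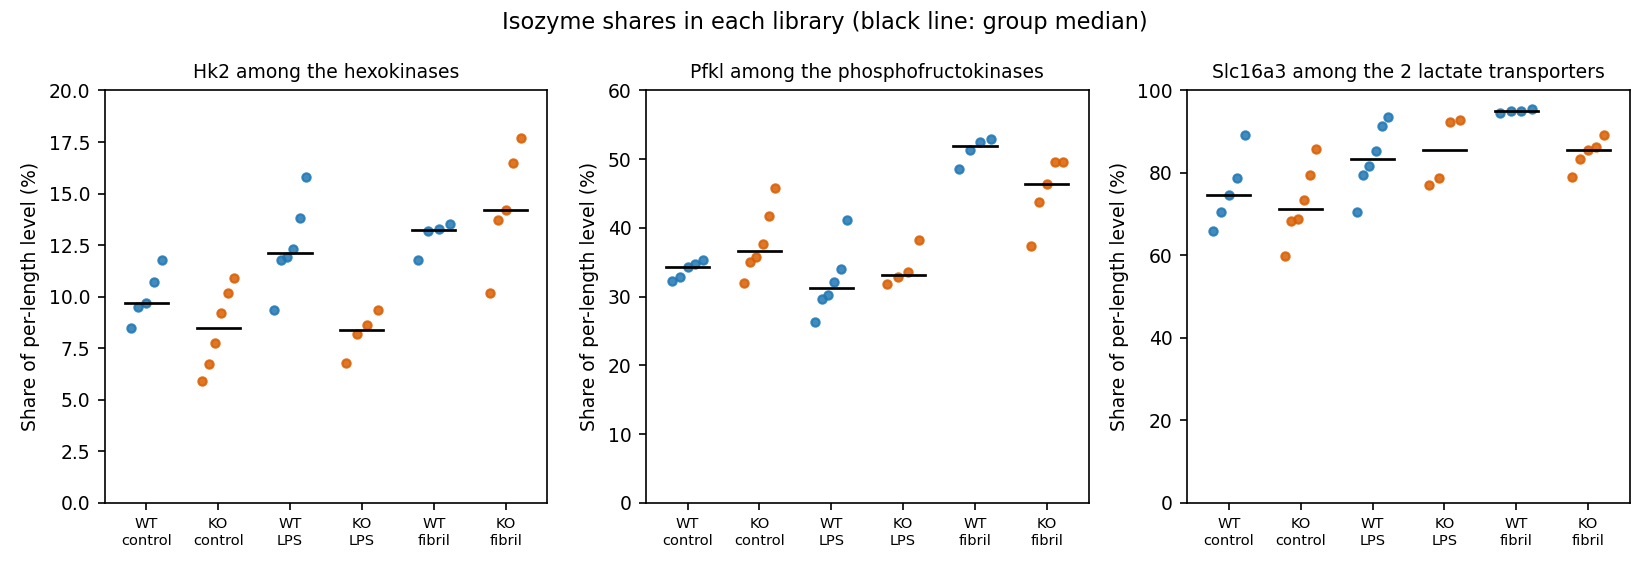
Share of Hk2 among hexokinases, of Pfkl among phosphofructokinases and of Slc16a3 among lactate transporters, in percent of the per-length level, 1 point per library, by group. Pfkl averages 33.9% in wild-type controls and 51.4% with fibrils, with no overlap.

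Pfkl made up 33.9% ± 1.31 (SD, n = 5) of the phosphofructokinase level in wild-type controls and 51.4% ± 1.95 (n = 4) with fibrils (exact permutation p = 0.0159, the smallest that 4 against 5 libraries can give, adjusted 0.0889). Pfkp, the other large form, averaged 57.6% and 44.7%. In KO the Pfkl share was 37.98% ± 5.02 (n = 6) and 45.3% ± 5.11 (n = 5, exact permutation p = 0.0476, adjusted 0.162). Slc16a3 took 75.77% ± 8.897 of the lactate transporter level in wild-type controls and 95.04% ± 0.443 with fibrils (exact permutation p = 0.0159), and 72.7% ± 9.15 and 84.6% ± 3.82 in KO (exact permutation p = 0.0346). Hk2's share was 10.03% ± 1.25 and 13.0% ± 0.773 in wild type (exact permutation p = 0.0159) and 8.47% ± 1.98 and 14.5% ± 2.89 in KO (exact permutation p = 0.00866, adjusted 0.0889). Hk3 was the main hexokinase throughout, with group means of 79.9 to 87.2%.

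Pkm, pyruvate kinase, is spliced to hold 1 of a pair of exons of 167 bases on chromosome 9, the upstream one (59675029 to 59675195, GRCm38) in the M1 form and the downstream one (59675568 to 59675734) in the M2 form of most proliferating cells and macrophages. Transcript Pkm-202, with the upstream exon, averaged 18.3 to 23.8% of the count of the pair in the 6 groups, so the M2 form led in each. The count table assigns reads to transcripts by a method that is not stated in the sources used here, and most bases are shared by both, so this share is an estimate.

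Genes around the pathway were taken from 5 separate lists. Their calls in wild type with fibrils, and between genotypes with fibrils, carry the same limit of other-cell content as those of the members. With the other-cell score as a covariate 16.6% and 0.509% of all genes were called in these 2 comparisons. Values of the listed genes under that covariate are not given here. Of 13 tested HIF regulators 5 rose with fibrils in wild type and 4 in KO, and none fell, 38.5% and 30.8% of the list against 29.4% and 23.7% of all genes. The list's median log2 fold change was -0.14 in wild type and 0.15 in KO. Vhl, the ligase that destroys HIF-1α, rose by 0.64 ± 0.09 and 0.45 ± 0.08, its partner Eloc by 0.70 ± 0.11 and 0.58 ± 0.10, the hydroxylase Egln2 by 0.57 ± 0.10 and 0.62 ± 0.09, and the scaffold Cul2 by 0.19 ± 0.07 and 0.18 ± 0.07. Rbx1, the ring subunit, rose in wild type (0.37 ± 0.10). With LPS Vhl fell instead, at -0.38 ± 0.08 in wild type and -0.33 ± 0.09 in KO, and Cited2, which competes with HIF for its coactivator, rose by 1.80 ± 0.21 and 1.37 ± 0.21. Eloc also rose with LPS in wild type (0.31 ± 0.10), so 2 regulators rose and 1 fell there, and 1 rose and 1 fell in KO, 23.1% and 15.4% of the list against 15.1% and 13.7% of all genes.

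The pentose phosphate pathway draws glucose 6-phosphate off to make NADPH. Of its 10 tested genes 60% were called in wild type with fibrils, against 29.4% of all genes, with a median log2 fold change of 0.21, and 5 rose and 1 fell: Pgd (1.03 ± 0.18), Taldo1 (0.86 ± 0.23), G6pdx (0.69 ± 0.18), its first enzyme, Tkt (0.43 ± 0.14) and Rpe (0.26 ± 0.10), with Prps2 at -0.63 ± 0.15. In KO Pgd rose (0.63 ± 0.16) and Prps2 fell (-0.73 ± 0.13), 20% of the list against 23.7% of all genes. Between KO and wild type with fibrils 4 were lower, 40% of the list against 8.94% of all genes: Taldo1 (-0.77 ± 0.23), Pgd (-0.66 ± 0.18), G6pdx (-0.60 ± 0.18) and Tkt (-0.51 ± 0.14). Genotype and other-cell content cannot be told apart in that comparison. None of the 10 was called with LPS in either genotype.

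Of 8 glycogen genes 3 rose in wild type with fibrils, 37.5% against 29.4% of all genes, among them the phosphoglucomutase Pgm1 (0.78 ± 0.15) and Ugp2 (0.39 ± 0.09). In KO Gyg (-0.66 ± 0.17) and Pygb (-0.35 ± 0.09) fell, 25% against 23.7% of all genes, and between KO and wild type with fibrils 2 were lower (25% against 8.94%), Pgm1 (-0.78 ± 0.15) among them. None was called with LPS. Of 29 tested further glycolysis and pyruvate genes 6 rose and 5 fell in wild type with fibrils, and 5 rose and 8 fell in KO, 37.9% and 44.8% of the list against 29.4% and 23.7% of all genes. Slc16a7, the monocarboxylate transporter MCT2, fell in both, at -1.12 ± 0.13 and -1.14 ± 0.12, as did the glucose transporter Slc2a8 (-0.60 ± 0.18 and -0.89 ± 0.16). Slc2a6, another transporter of that family, rose in both (1.54 ± 0.33 and 0.85 ± 0.29) and with LPS (1.37 ± 0.30 in wild type, 1.35 ± 0.31 in KO). Ldhb, the lactate dehydrogenase subunit that favours pyruvate, fell in wild type (-0.99 ± 0.24), opposite to Ldha. Pdk2 (-1.27 ± 0.44) and the muscle phosphofructokinase Pfkm (-0.48 ± 0.17) fell there too. Other-cell markers fell in the same comparison, and the part of other cells in these 3 values was not tested. Tigar, which lowers phosphofructokinase's activator, rose (0.60 ± 0.13). In KO Gpd2, the mitochondrial glycerol phosphate dehydrogenase, rose by 1.498 ± 0.22, with Adpgk (0.24 ± 0.07), Pdhx (0.27 ± 0.09) and Dld (0.27 ± 0.09). With LPS, Dld rose in wild type (0.29 ± 0.10) and Pdp2 fell in KO (-0.61 ± 0.19). Between KO and wild type with fibrils Ldhb was higher (1.00 ± 0.24) and Bsg, the chaperone of the lactate transporters, lower (-0.29 ± 0.09). Other-cell markers were higher in KO in that comparison.

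Of 32 other tested hypoxia genes 7 rose and 7 fell in wild type with fibrils, and 5 rose and 4 fell in KO, 43.8% and 28.1% of the list against 29.4% and 23.7% of all genes. Gbe1, the glycogen branching enzyme, rose by 1.39 ± 0.18 and 0.91 ± 0.16, while Selenbp1 (-1.03 ± 0.16 and -1.18 ± 0.15) and Angptl4, a HIF and lipid-induced secreted protein, fell (-2.74 ± 0.44 and -2.52 ± 0.40). In KO Lox (1.72 ± 0.29), Edn1 (3.53 ± 0.84), Cp (1.23 ± 0.39) and Higd1a (0.29 ± 0.09) also rose, and Mxi1 (-1.64 ± 0.43) and Ppp1r3b (-0.56 ± 0.19) fell. With LPS 3 rose and 2 fell in wild type and 4 rose in KO, 15.6% and 12.5% against 15.1% and 13.7% of all genes. Pgf, a relative of Vegfa, rose by 3.20 ± 0.50 and 2.50 ± 0.50, and Pnrc1 by 1.04 ± 0.15 and 1.34 ± 0.16. Angptl4 (-1.25 ± 0.36) and Ankzf1 (-0.47 ± 0.10) fell in wild type, and Gbe1 rose in KO (0.67 ± 0.17). Between KO and wild type with fibrils 25% of the list was called, against 8.94% of all genes. Lower were 5, Pnrc1 (-0.74 ± 0.17), Kdm3a (-0.57 ± 0.14), Gbe1 (-0.62 ± 0.17), Narf (-0.66 ± 0.20) and Bnip3l (-0.64 ± 0.20). The 3 higher included Ppp1r3c (3.62 ± 0.88) and Loxl2 (4.89 ± 1.29). Genotype and other-cell content cannot be told apart there.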

How the data were processed

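The authors deposited 1 table of whole-number counts per Ensembl transcript for 30 libraries of rRNA-depleted, stranded total RNA. Reads were base-called with CASAVA 1.7.1 and aligned with STAR 2.4.2a to mm10, per the submitters' processing notes, and the counting tool is not stated in the sources used here. Of 94647 transcripts 91320 matched GENCODE M21 and were summed to 38031 genes; the other 3327 held 0.779 to 0.891% of the counts per library and were left out. No pair of libraries was identical.

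The counts of all 6 groups were fitted with edgeR 4.0.16 in R 4.3.3 (TMM scaling, filterByExpr, quasi-likelihood test, common biological coefficient of variation 0.294, 24 residual degrees of freedom), giving 11 comparisons adjusted by Benjamini-Hochberg over 14346 genes. Isozyme shares were tested with SciPy 1.17.1. DESeq2 1.42.0, limma 3.58.1 voom, other scalings and filters, a replicate block and leaving out each library in turn were alternatives. The main fit was also run on simulated independent counts with known changes, and the outcome is not reported here. Those counts held no outlying libraries and no differences in other-cell content, so that run does not bear on either. Values in every library are given for the 2 members of each of the 6 role lists with the smallest p over the 4 comparisons with control and for members called between genotypes, and up to 3 called genes per comparison of each further list are named, or all where 5 or fewer were called. Slc16a1, Vegfa and Ndrg1 were added to these after their values were seen. Of the further lists, 2 genes that the rule would name are not reported here. The members and lists were chosen with earlier results of these data known.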

Additional observations from a re-analysis of the deposited data

Results flagged for a closer look

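In each group of 4 to 6 libraries the highest or lowest CPM of a member was compared with its nearest neighbour, and 24 of 198 such sets held a library whose gap to the rest exceeded Dixon's 95% limit, where chance flags about 1 set in 20. Wild-type control replicate 6 was the highest of its group in 13 of them. Its level stood away from the other controls for Slc2a1 (103.5 CPM), Tpi1 (404.6 CPM), Gapdh (808.5 CPM), Pgk1 (708.3 CPM), Pgam1 (568 CPM), Eno1 (767.3 CPM), Eno2 (10.51 CPM), Ldha (677.6 CPM), Slc16a3 (118.7 CPM), Egln3 (9.689 CPM), Bnip3 (86.04 CPM), Pdk1 (122.3 CPM) and Ankrd37 (9.164 CPM). The same library had the lowest other-cell score of the controls, -0.966, against 0.753 or more in the other 4. Its part in these values was not tested.

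Wild-type LPS replicate 6, with the lowest other-cell score of its group at -1.45, was high for Hk2 (123.3 CPM), Egln3 (13.32 CPM) and Ndrg1 (84.18 CPM). Wild-type LPS replicate 1 was high for Aldoc (20.64 CPM) and Slc16a1 (66.23 CPM) and low for Vegfa (37.21 CPM), and replicate 2 was high for Hif1a (226.3 CPM). Single values elsewhere were Pfkl low in KO control replicate 6 (30.7 CPM), Ero1l low in KO LPS replicate 4 (95.35 CPM), Slc16a1 high in wild-type fibril replicate 3 (29.83 CPM) and Ddit4 high in wild-type control replicate 3 (1.545 CPM).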

How the results depend on the processing

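The 82 called member values kept their direction in every alternative, and 39 of them stayed past the threshold in all. The number of members called between KO and wild type with fibrils was 15 with all libraries, where 8.94% of all genes were called. It was 8 with RLE scaling (8.25% of all genes), 5 with library size as the only scaling (8.48%) and 5 with no filter on low counts (3.19%). With limma-voom it was 9 (4.01%), with the other-cell score as a covariate 0 (0.509%), and 0 to 18 when 1 library was left out. In wild type with fibrils the 23 calls became 15 with the score as a covariate. Without 7 libraries that stand apart the count with LPS in wild type was 10, between fibrils and LPS in KO 10, between genotypes with LPS 2 and for the difference of the fibril responses 6, and it was 1 for that difference without the 2 wild-type libraries numbered 6. Both of these and the covariate were chosen after seeing the data. The causes were not tested. Leaving out 1 library gave 20 to 27 calls with fibrils in wild type, 8 to 10 in KO, 4 to 8 with LPS in wild type, 4 to 9 in KO, 17 to 21 between fibrils and LPS in wild type and 4 to 5 in KO, and 0 to 0 in the other comparisons and the isozyme shares.

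The deviations of samples with the same replicate number had a median r of 0.053 over 64 pairs, 25 of them over 0.1, against -0.006 over 309 pairs with different numbers, 77 of them over 0.1, and 12 of 30 libraries were closest to their own number. As not every pair was over 0.1 and no label says what a number marks, the numbers were not taken as pairs. This rule does not exclude a pairing. For the wild-type controls numbered 5 and 6 in their titles the descriptions give other numbers, and the title numbers were used. With the replicate number as a block the calls were 26 with fibrils in wild type (32.7% of all genes called) and 10 in KO (25.6%). With LPS they were 6 in wild type (16.4%) and 8 in KO (14.6%). Between fibrils and LPS they were 23 in wild type (39.5%) and 6 in KO (27.3%). There were 19 between genotypes with fibrils (14.7%) and 0 in the other 4 comparisons. Low counts limit Adm, Egln3, Ankrd37 and Ddit4 most.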
